A study of Saccharomyces cerevisiae BY4741 with 2 samples.

Results

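The 10 genes described here encode the peroxisomal oxidation of fatty acids and the carnitine shuttle of the budding yeast Saccharomyces cerevisiae. They were listed by name (POX1, FOX2, POT1, SPS19, FAA2, CTA1, CRC1, CAT2, YAT1 and YAT2), and all 10 have a row among the 7134 rows of the sense-strand count table. The data are strand-specific RNA sequencing of total RNA depleted of ribosomal RNA, from cells in mid-log growth in rich medium with glucose. The dbp2 deletion strain is labelled MATa with dbp2::KanMx, a kanamycin cassette in place of the gene for the DEAD-box RNA helicase Dbp2, together with his3Δ0, leu2Δ0, ura3Δ0, lysΔ, met- and TRP1. The wild-type strain, labelled BY4741, is MATa with ura3Δ0, met15Δ0, leu2Δ0 and his3Δ1. Each strain has 2 libraries, called deletion 2 and deletion 3 and wild type 1 and wild type 2 after the columns of the count table. The labels number the libraries of both strains 1 and 2, and nothing ties deletion 2 and deletion 3 to those numbers. The his3, lys, met and TRP1 labels differ between the strains as well, so the effect of the deletion and that of the strain background cannot be told apart. The labels do not state whether each library had its own culture, so p-values measure only library-to-library spread, which could be purely technical.

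In budding yeast, fatty acids are oxidised in peroxisomes and not in mitochondria. An acyl-CoA oxidase opens each cycle and releases hydrogen peroxide, which a peroxisomal catalase breaks down, and further enzymes hydrate, oxidise and cleave the chain to acetyl-CoA. The acetyl units leave the peroxisome either as citrate-cycle acids or bound to carnitine, which acetyltransferases load and unload and a carrier of the mitochondrial inner membrane takes in. The pathway is known for strong repression by glucose and strong induction by oleate, through the paired activators Oaf1 and Pip2, which bind oleate response elements, and through Adr1.

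Oleate response elements are printed first because most of the 10 genes share them and because genes with and without an element, and with opposite strain differences, can be set side by side. The motif searched was CGGNNNTNA followed by any 9 to 12 bases and then CCG, on both strands, in the 500 bases before each start codon of the R64 reference genome. It was found upstream of 8 of the 10 genes, against 1.88% of 6000 nuclear protein-coding genes. The element was defined in the field on genes of this pathway, so its presence is not independent of how the genes were chosen. POX1 and FOX2 held a pair of matches each, and CAT2 and YAT2 held none in this window. The matches are written in the orientation that fits the motif, with its fixed letters in capitals:
POX1, distal (chrVII:107846-107868, minus strand): CGGagtTtAatcaactaataCCG
POX1, proximal (chrVII:107883-107905, plus strand): CGGtcaTtAgcggctaatagCCG
FOX2, distal (chrXI:457337-457358, plus strand): CGGactTaAaactaggcttCCG
FOX2, proximal (chrXI:457305-457325, plus strand): CGGcgtTaAcaaatttccCCG
POT1 (chrIX:41610-41632, minus strand): CGGggaTaAtagtattaacaCCG
FAA2 (chrV:184355-184377, minus strand): CGGcgtTaAagactgacggtCCG
CTA1 (chrIV:969866-969889, minus strand): CGGcttTaAcaaatataaactCCG
SPS19 (chrXIV:259412-259435, plus strand): CGGcgtTaAgtatatcaaactCCG
CRC1 (chrXV:514584-514606, plus strand): CGGataTtAggagcagtaacCCG
YAT1 (chrI:190027-190048, minus strand): CGGggaTgAccgcggaccgCCG

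The Adr1 motif was searched as TTGGAG and TTGGGG on both strands in the same windows. One form or the other was found upstream of 9 of the 10 genes, all but CRC1, against 26.2% of the 6000 genes. Since the pathway is known for induction through Adr1, this count is not independent of how the genes were chosen either. The stress element core AGGGG was found upstream of 4 of the 10, POX1, SPS19, CRC1 and YAT1, against 34.1%. The surroundings of the elements of POX1 and SPS19 are shown because these genes differed in opposite directions between the strains although both hold an oleate element and an Adr1 motif. All bases inside a match to any of the motifs are in capitals, and the sequences run 5′ to 3′ towards the gene:
POX1 (chrVII:107823-107965, plus strand): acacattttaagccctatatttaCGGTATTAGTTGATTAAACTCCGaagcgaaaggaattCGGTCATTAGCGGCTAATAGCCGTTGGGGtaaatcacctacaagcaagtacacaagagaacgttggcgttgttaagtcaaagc
SPS19 (chrXIV:259352-259495, plus strand): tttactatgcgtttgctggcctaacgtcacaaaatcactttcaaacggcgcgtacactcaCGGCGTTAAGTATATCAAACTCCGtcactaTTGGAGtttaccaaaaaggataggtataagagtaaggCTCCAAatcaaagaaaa
In the POX1 stretch the proximal oleate element ends directly before a TTGGGG. In the SPS19 stretch a TTGGAG lies between the element and the gene, and a second Adr1 motif reads on the opposite strand. A motif match is a description of letters and shows nothing about binding in these cells.

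**Figure D1:**
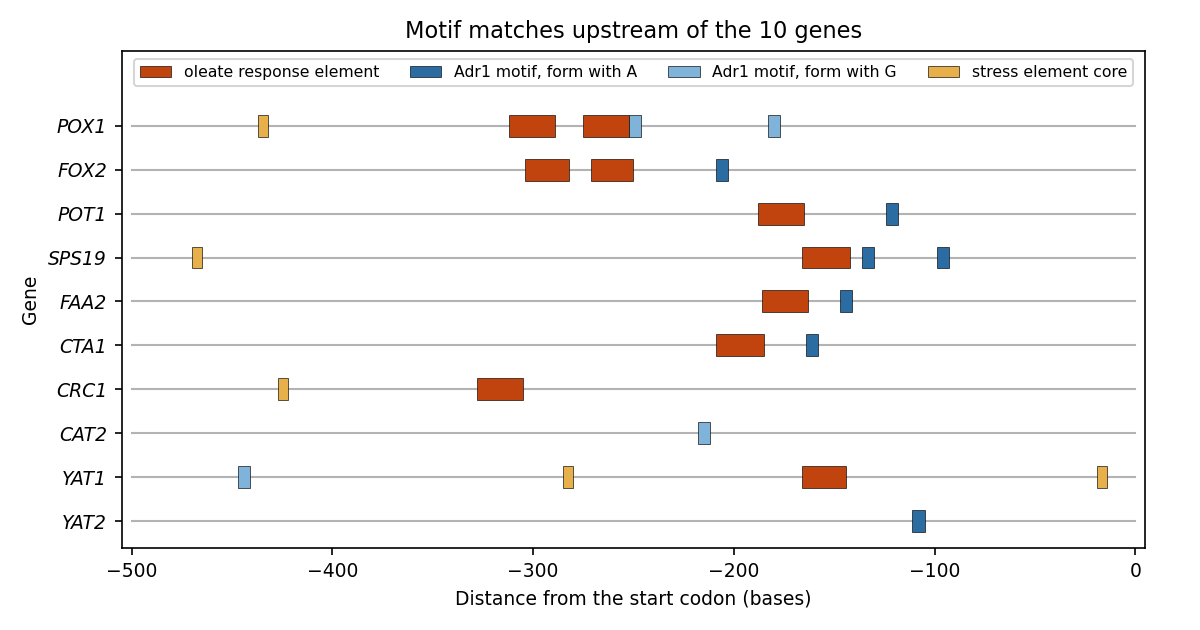
Matches to the oleate response element, to both forms of the Adr1 motif and to the stress element core in the 500 bases before the start codon of each gene (x axis, distance in bases; each bar is 1 match, drawn to scale). Oleate elements stand in 8 of the 10 rows, between 143 and 328 bases before the start codon, and the rows of CAT2 and YAT2 have none.

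Library totals ran from 10860000 to 36028173 counts, and both deletion libraries were deeper than both wild-type libraries. DBP2 itself had 1.62 and 7.87 CPM in the deletion libraries against 798 and 885 CPM in wild type (log2 fold change -7.49, SE 0.65, adjusted p = 7.37e-05), which fits the labels. CPM here are counts scaled to library size and TMM factors. Of 6124 features tested with edgeR's quasi-likelihood test, 41.9% were called at an adjusted p below 0.05 (21.2% higher and 20.7% lower in the deletion strain), so a call by itself is common in this comparison. Scaling by library totals alone raised the median of all features by 0.45 on the log2 scale, so directions are relative to the typical feature. Less RNA per cell and fewer cells with the RNA cannot be told apart in such bulk samples.

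In the deletion strain 8 of the 10 genes were higher (21.2% of all features were), 1 was lower and 1 did not pass the test. The median log2 fold change of the 10 genes was 1.49, against 0.015 over all features tested. The 10 genes and the lists described further on were chosen with earlier results of these data known. Their counts and medians are therefore not independent of these data. The higher genes were those of the oxidase POX1, the multifunctional enzyme FOX2, the thiolase POT1, the acyl-CoA synthetase FAA2, the catalase CTA1, the carnitine carrier CRC1 and the carnitine acetyltransferases CAT2 and YAT1. SPS19 was lower, and YAT2 did not pass. All 10 passed the filter on low counts, but POX1 and POT1 did so only through the deletion libraries, where they were higher. That these 2 were tested is thus not independent of the strain difference. In all 10 the deletion libraries and the wild-type libraries did not overlap, as was so for 74.7% of all features tested. POX1, CTA1, CRC1 and CAT2 kept their calls under each of the 11 alternative settings and left-out libraries, whereas FOX2, POT1, FAA2, SPS19 and YAT1 each lost theirs under at least 1. The authors' deposited edgeR table gives the same direction for all 10 genes and an adjusted p below 0.05 for 9 of them. It covers the same comparison, and its log2 fold changes of the 10 genes lie within 0.0269 of those given here. It is therefore no independent support.

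**Figure D2:**
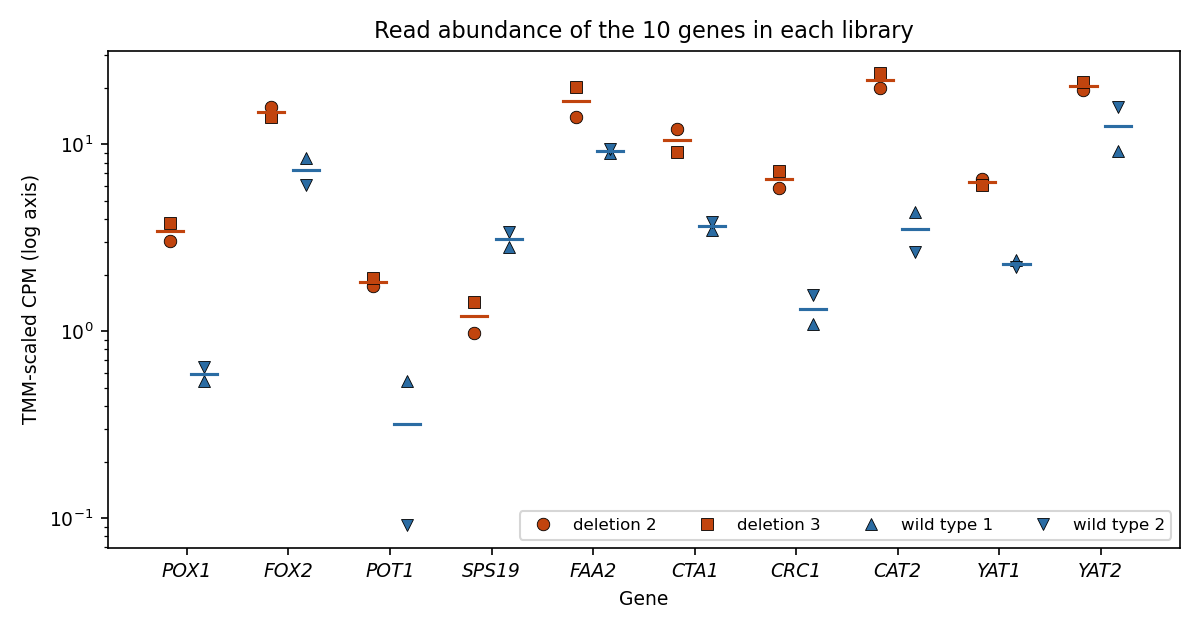
Abundance of each of the 10 genes in each library (y axis, TMM-scaled CPM on a log axis; symbols are single libraries and bars the mean of 2 libraries). The deletion libraries lie above the wild-type libraries for every gene but SPS19, where both lie below.

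The oxidase, the thiolase and the multifunctional enzyme of the cycle were higher, and the reductase used for unsaturated fatty acids was lower. POX1, the acyl-CoA oxidase (YGL205W, chromosome VII, 108158 to 110404, plus strand, 1 coding part), had 124 and 115 counts in the deletion libraries and 5 and 7 in wild type, or 3.04 and 3.82 CPM against 0.545 and 0.641 CPM. Both deletion libraries were well above both wild-type libraries, by 5.70-fold (log2 fold change 2.51, SE 0.48, adjusted p = 0.00328). The 12 wild-type counts limit this ratio to 3.17 to 11.1 by counting error alone (95% exact interval around 5.65).

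POT1, the ketoacyl-CoA thiolase that releases acetyl-CoA (YIL160C, chromosome IX, 40191 to 41444, minus strand), was the least abundant of the 10 in wild type. It had 71 and 58 counts in the deletion libraries and 5 and 1 in wild type, or 1.74 and 1.93 CPM against 0.545 and 0.0916 CPM. The deletion libraries were close to each other and the wild-type libraries were not. The log2 fold change of POT1 was 2.58 (SE 0.69, adjusted p = 0.0159), and the ratio of its group counts was 6.10 with a 95% counting interval of 2.73 to 16.9. Its value turned on the wild-type libraries, at 4.25 when wild type 1 was left out and 1.78 when wild type 2 was (adjusted p = 0.102, no longer called).

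FOX2, the multifunctional hydratase and dehydrogenase that acts between these steps (YKR009C, chromosome XI, 454352 to 457054, minus strand), had 15.8 and 14.0 CPM in the deletion libraries against 8.50 and 6.04 CPM in wild type. The deletion libraries of FOX2 were above its wild-type libraries, with a log2 fold change of 1.04 (SE 0.29, adjusted p = 0.0173). The call of FOX2 was lost without wild type 2 (0.85, adjusted p = 0.0619) and without deletion 2 (0.95, adjusted p = 0.0949).

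SPS19, the dienoyl-CoA reductase used for unsaturated fatty acids and first known as a sporulation gene (YNL202W, chromosome XIV, 259578 to 260456, plus strand), went the other way. It had 40 and 43 counts in the deletion libraries and 26 and 37 in wild type, which at the greater depth of the deletion libraries is 0.982 and 1.43 CPM against 2.83 and 3.39 CPM. Both deletion libraries were below both wild-type libraries, and SPS19 was 2.60-fold lower in deletion cells (log2 difference -1.38, SE 0.43, adjusted p = 0.0288). The sign was negative in all 11 alternatives, but the call of SPS19 was lost without any 1 of the 4 libraries (adjusted p from 0.0546 to 0.220), under library totals (adjusted p = 0.113) and with DESeq2 (adjusted p = 0.0610).

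SPS19 and its divergent neighbour differed in opposite directions. SPS18, a sporulation gene that starts 300 bases away on the opposite strand and shares the upstream region printed above, had 8.84 and 8.80 CPM in the deletion libraries against 1.09 and 1.10 CPM in wild type. SPS18 was thus 8.02-fold higher (log2 fold change 3.0, SE 0.36, adjusted p = 0.000383), beside the lower SPS19. SPS18 was singled out after its values were seen. Over the 18 tested features that adjoin or overlap the 10 genes, 3 were higher and 3 lower, with a median log2 fold change of 0.07. Over all features 21.2% were higher and 20.7% lower, with a median of 0.015, so these counts do not set the neighbours apart. The 3 higher neighbours were SPS18, SMU2 (0.89, downstream of POT1) and BUD25, which overlaps FAA2 on the opposite strand. BUD25 (2.89, adjusted p = 0.0287) rested on 2 counts in wild type and lost its call with DESeq2 and without wild type 1, wild type 2 or deletion 3. BUD25 passed the main filter on low counts only through the deletion libraries, so that it was tested is not independent of the strain difference. Without deletion 2, and with a minimum of 1 CPM in 2 libraries, BUD25 did not pass the filter and was not tested. SMU2 lost its call with abundance-dependent offsets (0.55, adjusted p = 0.0901) and without deletion 2 (adjusted p = 0.0850) or deletion 3 (adjusted p = 0.0653).

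FAA2, an acyl-CoA synthetase of the peroxisome that activates medium-chain fatty acids (YER015W, chromosome V, 184541 to 186775, plus strand), had 14.1 and 20.3 CPM in the deletion libraries against 9.05 and 9.43 CPM in wild type. The wild-type libraries nearly coincided, and deletion 3 was the highest of the 4. Its log2 fold change of 0.89 (SE 0.28, adjusted p = 0.0304) lost its call without wild type 1 (adjusted p = 0.0680), wild type 2 (adjusted p = 0.0634) or deletion 3 (0.61, adjusted p = 0.265). With offsets that follow abundance, FOX2 (0.63, adjusted p = 0.0851) and FAA2 (0.51, adjusted p = 0.172) were no longer called.

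CTA1, the peroxisomal catalase (YDR256C, chromosome IV, 968133 to 969680, minus strand), had 12.1 and 9.10 CPM in the deletion libraries against 3.49 and 3.85 CPM in wild type. CTA1 was 2.89-fold higher (log2 fold change 1.53, SE 0.32, adjusted p = 0.00493). The cytosolic catalase CTT1, a gene of the general stress response, had 93.4 and 87.0 CPM against 5.34 and 5.77 CPM and was 16.2-fold higher. Per kb of coding length, CTA1 supplied 12.4% and 10.2% of the summed level of both catalase genes in the deletion libraries, against 41.6% and 42.1% in wild type. CTA1 therefore took a smaller share in both deletion libraries although its own level was higher.

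Of the 4 genes of the carnitine shuttle, CAT2, CRC1 and YAT1 were higher and YAT2 did not pass. CAT2, the carnitine acetyltransferase of peroxisomes and mitochondria (YML042W, chromosome XIII, 192788 to 194800, plus strand), had 20.03 and 24.0 CPM in the deletion libraries against 4.36 and 2.66 CPM in wild type. The log2 fold change of CAT2 was 2.66 (SE 0.32, adjusted p = 0.00037), and with 1 library left out it ran from 2.38 to 3.04. CRC1, the carnitine carrier of the mitochondrial inner membrane (YOR100C, chromosome XV, 513295 to 514278, minus strand), had 5.87 and 7.24 CPM against 1.09 and 1.56 CPM. CRC1 was 4.89-fold higher (log2 fold change 2.29, SE 0.39, adjusted p = 0.00196). Both genes had deletion libraries clear of the wild-type libraries.

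The other acetyltransferases had smaller fold changes, and whether they differ from that of CAT2 was not tested. YAT1, the acetyltransferase of the outer mitochondrial surface (YAR035W, chromosome I, 190193 to 192256, plus strand), had 6.55 and 6.08 CPM in the deletion libraries against 2.40 and 2.2 CPM in wild type. Libraries of a strain were close for YAT1, which gave 1.46 on the log2 scale (SE 0.34, adjusted p = 0.00873), with the call lost without deletion 2 (1.40, adjusted p = 0.0518). YAT2, a cytosolic acetyltransferase (YER024W, chromosome V, 202192 to 204963, plus strand), had 19.5 and 21.7 CPM against 9.27 and 15.8 CPM. The wild-type libraries of YAT2 lay far apart, and its log2 fold change of 0.71 (SE 0.29, adjusted p = 0.0800) did not pass. It was 0.37 without wild type 1 and 1.19 without wild type 2, where it passed (adjusted p = 0.0173), and it also passed under library totals (1.15, adjusted p = 0.00597).

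Within the acetyltransferases the order of the genes differed between the strains. Per kb of coding length, CAT2 made up 49.4% and 52.6% of the summed level of CAT2, YAT1 and YAT2 in the deletion libraries, against 32.5% and 16.3% in wild type. The share of YAT2 was 34.9% and 34.4% in the deletion libraries against 50.1% and 70.6% in wild type, while YAT1 had 15.8% and 13% against 17.4% and 13.1%. CAT2 was thus the leading transcript of the 3 in both deletion libraries and YAT2 in both wild-type libraries. The summed level of the 3 genes was 20.2 and 22.7 CPM per kb against 6.67 and 8.10 CPM per kb. With 2 libraries a strain an exact permutation test of such a share cannot go below p = 0.333, so none is given.

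**Figure D3:**
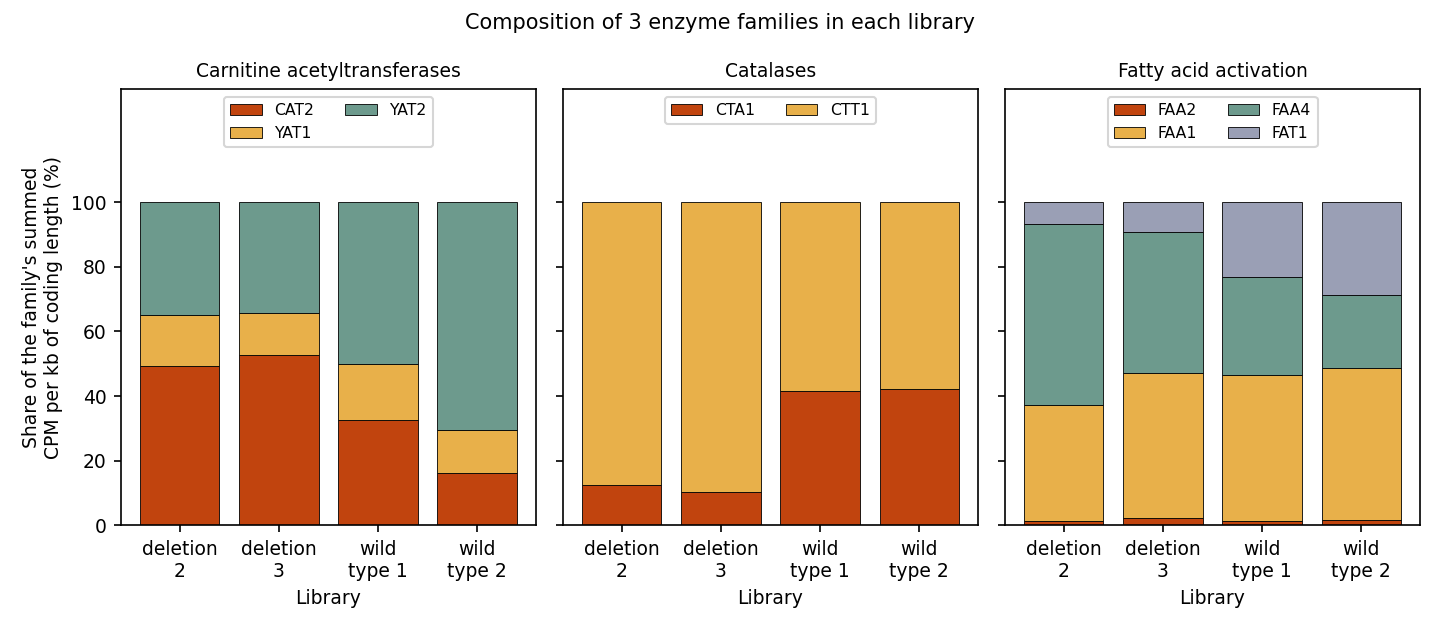
Share of each gene in the summed level per kb of coding length of its enzyme family (y axis, percent), in each library (x axis), for the carnitine acetyltransferases, the catalases and the genes that activate fatty acids. CAT2 is the largest part of its bar in both deletion libraries and YAT2 in both wild-type libraries, and CTA1 is the smaller part of the catalase bar in each library.

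Per kb of coding length the 10 genes fell into a different order in each strain. In the deletion strain CAT2 led with 10.9 ± 1.40 CPM per kb (SD, n = 2, as for the levels that follow), above FAA2 (7.68 ± 1.96), YAT2 (7.42 ± 0.55), CTA1 (6.85 ± 1.37) and CRC1 (6.66 ± 0.99), whose libraries overlapped one another. FOX2 (5.53 ± 0.47) and YAT1 (3.06 ± 0.16) followed, and POX1 (1.53 ± 0.24), POT1 (1.46 ± 0.10) and SPS19 (1.37 ± 0.36) were lowest and overlapped. In wild type YAT2 (4.53 ± 1.68), FAA2 (4.13 ± 0.12) and SPS19 (3.54 ± 0.45) were highest, with YAT2 overlapping each of the other two, and FOX2 (2.69 ± 0.64) and CTA1 (2.37 ± 0.16) came next. CAT2 (1.74 ± 0.60), CRC1 (1.35 ± 0.34) and YAT1 (1.11 ± 0.07) were lower, and POX1 (0.264 ± 0.030) and POT1 (0.254 ± 0.256) were lowest and did not differ beyond their spread. SPS19 ranked 10 of 10 in the deletion strain and 3 of 10 in wild type, and CAT2 ranked 1 in the deletion strain and 6 in wild type.

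All 10 genes were of low abundance, between the 5.10 and 32 percentile of the tested features by mean CPM. Features of low abundance tended to be higher in the deletion strain: the median log2 fold change was 0.51 in the second of 10 equal groups by abundance and -0.54 in the last. The share called higher was 21.4%, 32.8%, 32.8% and 27.5% in the first 4 groups, which hold the 10 genes. In the last group it was 10.1%. Set against the median of their own abundance group, POT1 was higher by 2.32, POX1 by 2.25, CAT2 by 2.17, CRC1 by 1.77, CTA1 by 1.01 and YAT1 by 0.94 on the log2 scale. FOX2 (0.55), YAT2 (0.47) and FAA2 (0.40) stood closer to that median, and SPS19 was at -1.64 from it. With offsets that follow abundance the median of the 10 genes was 1.05, and 6 were called higher and 1 lower.

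**Figure D4:**
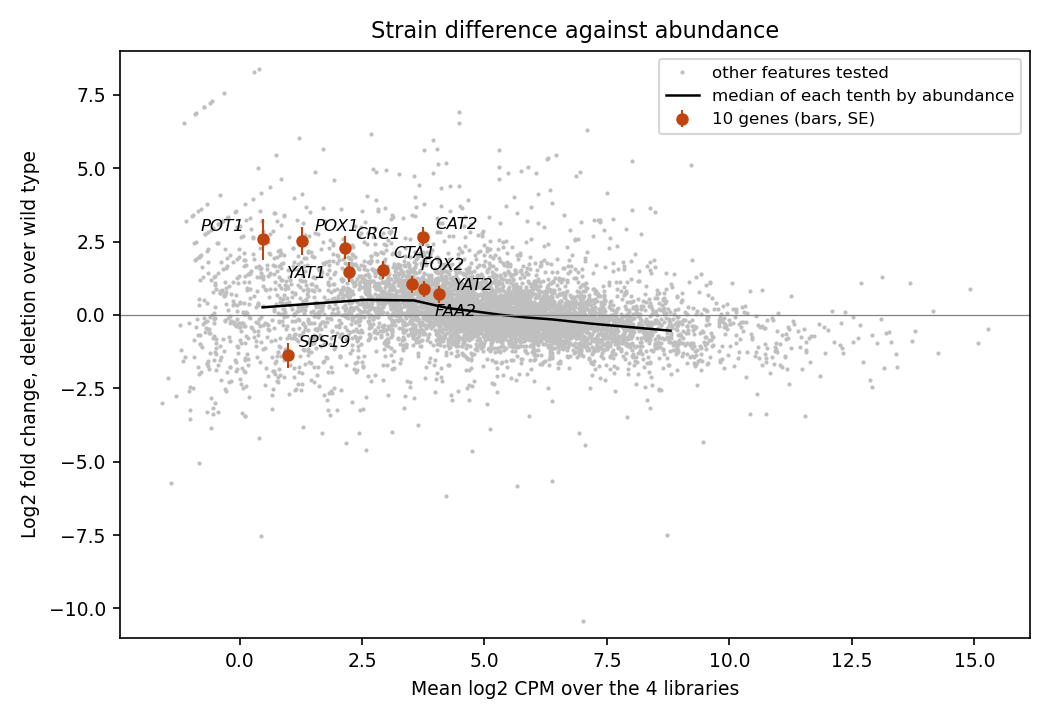
Log2 fold change, deletion over wild type (y axis), against mean log2 CPM over the 4 libraries (x axis) for all 6124 features tested (grey) and the 10 genes (red, with SE). The black line joins the medians of 10 equal groups by abundance. Of the 10 genes, 9 lie above the line and SPS19 lies below it.

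The rest of the pathway did not move as 1 block. Among the activators of oleate-induced genes, ADR1 was 3.76-fold higher in the deletion strain (29.8 and 43.6 CPM against 10.6 and 8.98 CPM, adjusted p = 0.00078). PIP2 was 2.89-fold higher (29.3 and 27.2 CPM against 11.6 and 8.06 CPM, adjusted p = 0.00198) and OAF1 2.54-fold higher (62.2 and 43.9 CPM against 25.3 and 16.6 CPM, adjusted p = 0.00428). The repressor gene OAF3 (0.33, adjusted p = 0.221) and the kinase gene SNF1 (0.53, adjusted p = 0.0622) did not pass, and both passed under library totals (0.78 and 0.97). Of the 5 regulators, 3 were higher and 0 lower (21.2% and 20.7% of all features were), with a median log2 fold change of 1.35. The calls of ADR1, PIP2 and OAF1 held in each of the 11 alternatives.

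Among 15 other enzymes and transporters of fatty acid use, 4 were higher, 3 lower and 8 did not pass. The shares over all features were 21.2% higher and 20.7% lower, so these counts do not set the list apart. Its median log2 fold change was 0.05. FAA4, a long-chain acyl-CoA synthetase, had 600 and 369 CPM in the deletion libraries against 182 and 124 CPM in wild type and was 3.16-fold higher. DCI1, of the enoyl-CoA isomerase family, was 2.24-fold higher, and the thioesterase TES1 (0.95) and the synthetase FAA1 (0.53) were also called. TES1 lost its call with abundance-dependent offsets (0.49, adjusted p = 0.195) and without wild type 2, deletion 2 or deletion 3, and FAA1 without any 1 of the 4 libraries. FAT1, a fatty acid transporter and very-long-chain synthetase, was 1.97-fold lower, with 70.3 and 74.9 CPM against 133 and 153 CPM. ANT1, the peroxisomal ATP carrier (-0.83), and the lipase LPX1 (-0.86) were lower, both with calls that were lost under library totals and without wild type 2 or deletion 2. ECI1, the enoyl-CoA isomerase that works with the cycle on unsaturated chains, was at -0.31 (adjusted p = 0.338), IDP3, the peroxisomal isocitrate dehydrogenase that supplies the NADPH used by the Sps19 reductase, at -0.22 (adjusted p = 0.650), and the transporter genes PXA1 and PXA2 at -0.58 (adjusted p = 0.129) and 0.49 (adjusted p = 0.128). PCS60, NPY1, PXP1 and GTO1 lay between -0.32 and 0.22 and did not pass. With abundance-dependent offsets ECI1 (-0.71, adjusted p = 0.0423) and PXA1 (-1.06, adjusted p = 0.0219) were called lower. Under library totals PXA2 (0.94, adjusted p = 0.00979), PCS60 (0.67, adjusted p = 0.0491) and PXP1 (0.64, adjusted p = 0.0335) were called higher. Of the genes that activate fatty acids, FAA4 held 55.9% and 43.6% of the summed level per kb of coding length in the deletion libraries, against 30.5% and 22.4% in wild type, and FAA2 held 1.22% and 2.23% against 1.41% and 1.59%. These shares were not tested.

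Of 9 genes that handle the acetyl units, 2 were higher, 2 lower and 5 did not pass. Of all features, 21.2% were higher and 20.7% lower. MLS1, a malate synthase, had 3.51 and 3.79 CPM in the deletion libraries against 0.763 and 0.824 CPM in wild type (4.56-fold higher, adjusted p = 0.00425). ACS1, the glucose-repressed acetyl-CoA synthetase, was 2.33-fold higher (adjusted p = 0.00987, or 0.0543 with abundance-dependent offsets), whereas ACS2, the form used on glucose, was 2.52-fold lower (adjusted p = 0.000574). CIT2, the peroxisomal citrate synthase whose product is the other exit for acetyl units, had 111 and 139 CPM against 322 and 334 CPM and was 2.62-fold lower (adjusted p = 0.000819). The peroxisomal malate dehydrogenase MDH3 (-0.38, adjusted p = 0.136), the mitochondrial citrate synthases CIT1 (0.02, adjusted p = 0.942) and CIT3 (-0.43, adjusted p = 0.279), ACH1 (-0.18, adjusted p = 0.561) and the plasma membrane carnitine transporter AGP2 (0.89, adjusted p = 0.0977) did not pass. AGP2 passed without wild type 1, without deletion 2 and under library totals. CIT3 was called lower with abundance-dependent offsets (-0.87, adjusted p = 0.0389).

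Peroxisome assembly genes differed in both directions, as features did in general. Of 31, 30 were tested, 4 were higher and 5 lower (21.2% and 20.7% of all features were), with a median log2 fold change of -0.17. PEX8, a peroxin inside the peroxisomal membrane that takes part in protein import, had 55.9 and 53.2 CPM in the deletion libraries against 14.8 and 12.1 CPM in wild type and was 4.06-fold higher (adjusted p = 0.000217). PEX9, an import receptor related to Pex5 and known from cells on oleate, was 3.59-fold higher (adjusted p = 0.00383). PEX35 (-0.97, adjusted p = 0.00820) and PEX30 (-0.79, adjusted p = 0.0157) were lower, and neither was called under library totals. PEX30 also lost its call without deletion 2 (-0.73, adjusted p = 0.100), whereas PEX35 stayed called whichever library was left out. PEX11, which drives peroxisome division, had 9.47 and 8.77 CPM against 14.6 and 5.86 CPM, with wild-type libraries on both sides of the deletion libraries. Over the regulators, enzymes, acetyl-unit and assembly genes together, 13 were called higher and 10 lower, beside 21.2% and 20.7% of all features. The 10 lower calls became 5 without wild type 2 and 4 without deletion 2. Scaling by library totals gave 26 higher and 3 lower.

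**Figure D5:**
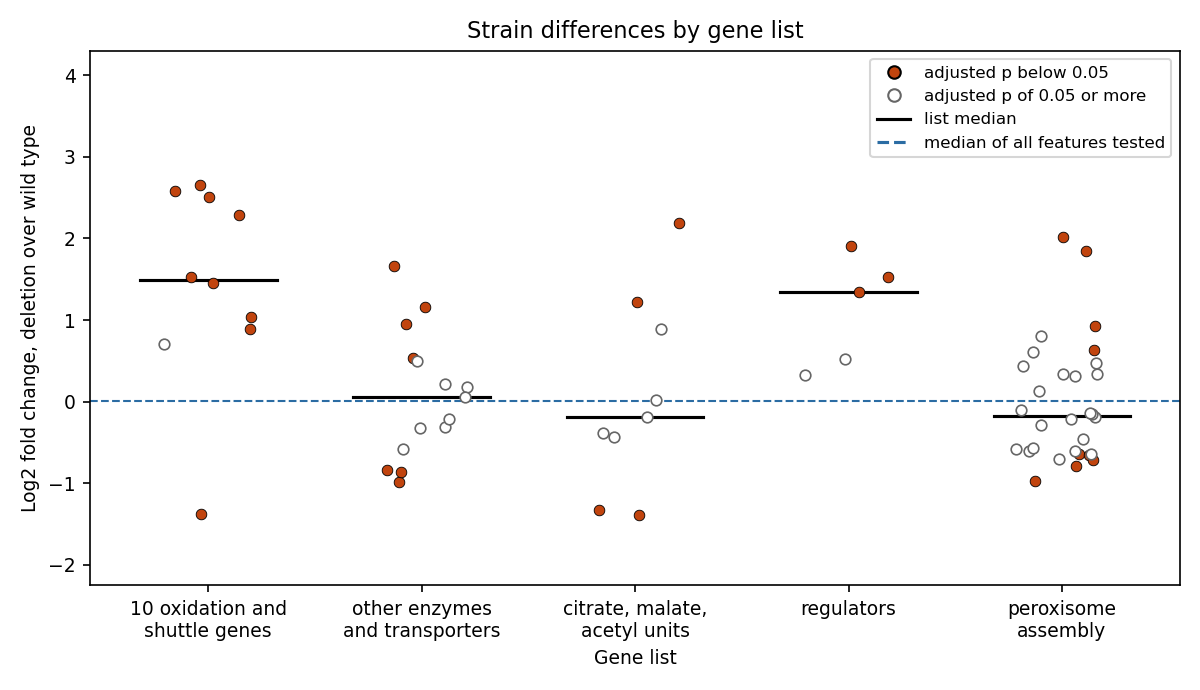
Log2 fold change, deletion over wild type (y axis), of each tested gene by list (x axis), filled where the adjusted p is below 0.05; black bars are list medians and the dashed line the median of all features tested. The medians of the 10 genes (1.49) and of the regulators (1.35) lie above the line, and those of the enzymes (0.05), the acetyl-unit genes (-0.18) and the assembly genes (-0.17) lie near or below it.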

How the data were processed

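Sense-strand reads per feature were deposited as raw counts, which the whole numbers in the table bear out. Reads were placed on the R64 (sacCer3) build, as named in the submitters' processing notes, and no source used here gives the aligner or counter. A second deposited table, made by the authors with edgeR, lists for 6456 features the log2 fold change, mean log2 CPM and p-value, raw and adjusted, as its header names them.

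The tests used edgeR 4.0.16 (R 4.3.3) with filterByExpr, TMM scaling and the quasi-likelihood test over all 6124 features kept, with Benjamini-Hochberg adjustment and a threshold of 0.05. An SE is the absolute log2 difference divided by the square root of F. On counts simulated for this comparison (6124 features, 200 of them changed), 62 of 100 genes set to a 2-fold change were recovered. At 4-fold 100 of 100 were recovered, and 14 of 5924 unchanged genes were called. The changed genes were drawn only from those above a minimum expected wild-type count, and all features were given a common dispersion. Recovery of genes with the fewest counts was therefore not measured. In the data 41.9% of features were called, and whether these rates hold there was not tested. Library totals ran from 10860000 to 36028173. The limit of 3 counts that a count of 0 allows is 0.0736 to 0.327 CPM, and it and the exact intervals cover counting error only. Coordinates, coding lengths and sequences come from the R64 reference (RefSeq), 1-based.

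Alternatives were library totals, DESeq2 size factors, abundance-dependent offsets (loess, span 0.3), no filter, a minimum of 1 CPM in 2 libraries, DESeq2 1.42.0, edgeR's exact test, and leaving out each library; for SPS18, BUD25, SMU2 and YNL203C they were added after seeing the data. All 10 genes are named, with any gene of the enzyme, acetyl-unit and regulator lists, and the 4 assembly genes called with the smallest p. PEX5, PEX6 and PEX13 are named for their oleate element matches, and PEX18 is named outside these rules. PEX11, the neighbours and the shares within enzyme families were chosen after values were seen. The genes and lists were chosen with earlier results of these data known. Counts of the read's strand were used as deposited, and reads of BUD25 and FAA2 are kept apart only by strand.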

Additional observations from a re-analysis of the deposited data

How the results depend on the processing

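No alternative reversed the sign of a called gene named here, the neighbours SPS18, BUD25 and SMU2 and the row YNL203C included. For BUD25 this covers only the alternatives in which it was tested. Of 110 repeats of the 10 genes (11 for each), 93 stayed on the same side of the threshold with the same sign, 15 lost the call and 2, both of YAT2, gained it. The 8 genes called higher became 9 under library totals, 6 with offsets that follow abundance and 6 to 7 when 1 library was left out. The 1 called lower, SPS19, became 0 under library totals, 0 with DESeq2, and 0 in each of the 4 leave-outs. The median log2 fold change of the 10 genes (1.49) was 1.94 under library totals, 1.05 with offsets that follow abundance and 1.36 to 1.62 with 1 library left out. Over the other pathway lists, 13 higher and 10 lower calls became 26 and 3 under library totals, or 10 and 17 with offsets by abundance. With 1 library left out they ran from 9 to 11 higher and from 4 to 11 lower. Of all calls, 81.1% were higher under library totals, against 50.6% with TMM, and the 2569 features called ran from 1724 to 2440 in the leave-outs. Library totals ignore the composition of the libraries, and a leave-out leaves 1 library in a strain, which is assumed to vary like the other strain; other causes were not tested. No paired analysis was possible because the labels number the libraries of each strain 1 and 2, the deletion columns are numbered 2 and 3, and nothing matches those columns to the label numbers. The wild-type counts of POX1 (12) and POT1 (6) limit the precision of their ratios.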

Other observations

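Beyond the 10 genes, 105 genes have an oleate response element match in the 500 bases before the start codon. Of 100 tested, 25% were called higher and 12% lower, deletion over wild type, with a median log2 fold change of 0.20. Over all nuclear protein-coding genes with such a window, 22% were higher and 19% lower, with a median of 0.05. Among the pathway genes with a match, DCI1, TES1, PIP2 and PEX6 were called higher, ACS2 and PEX13 lower, and ECI1, IDP3, PXA2, CIT1, MDH3, PEX5 and PEX11 did not pass. PEX6 (0.63, adjusted p = 0.0230) lost its call without wild type 1 (adjusted p = 0.0692), deletion 2 (adjusted p = 0.108) or deletion 3 (adjusted p = 0.0682). PEX13 (-0.65, adjusted p = 0.0366) lost its call under library totals (adjusted p = 0.504) and without wild type 2 (adjusted p = 0.168), deletion 2 (adjusted p = 0.223) or deletion 3 (adjusted p = 0.0588).

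Beside SPS18, a row listed as YNL203C, which the reference does not annotate, had 7.90 and 8.83 CPM in the deletion libraries against 1.09 and 1.47 CPM in wild type (log2 fold change 2.70, SE 0.37, adjusted p = 0.000694, edgeR quasi-likelihood test). It was chosen after its values were seen. PEX18, a coreceptor of the thiolase Pot1 for import, had 6 and 20 counts in the deletion libraries and 1 and 2 in wild type and did not pass the filter on low counts.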
